A study of Mus musculus with 10 samples.

Results

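Genes of glucose breakdown, lactate transport and the pentose phosphate pathway were compared between mouse brain tissue at the site of a cortical impact and the matching tissue of the other hemisphere. The list had 35 members, genes of enzymes, transporters and regulators grouped by pathway. Of these, 30 had an array row that named them alone, among 30142 genes tested in all. Rows that named Pfkfb2 or Tkt also named another gene, and Gpi1, Eno1 and G6pdx had no row listed under their symbol.

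Brain tissue was collected on day 7 after a controlled cortical impact injury, a form of experimental brain trauma in which a driven rod indents the cortical surface on 1 side, here by 2 mm. The ipsilateral group held 5 samples from the site of the impact, and the contralateral group held 5 samples from the matching region of the other hemisphere of impacted mice. The labels describe male and female adult mice aged 8 to 12 weeks. The labels gave no strain or genotype. Contralateral tissue is itself from injured animals, and no sham-operated animals were analysed here. All 10 arrays had low Xist signals (4.53 to 4.67 on the log2 scale) and clear signals of 3 Y-linked genes (7.75 to 8.88), so the arrays did not show both sexes. Samples of a side are labelled as biological replicates. Which samples came from 1 mouse is not stated, and p-values measure the spread between these samples.

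There was 1 whole-transcript array per sample, and the values are the authors' log2 signals, on which a difference of 1 is a doubling. The number of arrays limits the precision. The median signal over all rows lay between 4.79 and 4.84 on the ipsilateral arrays and between 4.71 and 4.77 on the contralateral arrays. These ranges do not overlap, while the medians over the genes tested do (5.52 to 5.65 ipsilaterally and 5.48 to 5.56 contralaterally). A shift of whole arrays cannot be told apart from side. Levels are compared for the same gene between arrays, and not between genes. A gene was called when its Benjamini-Hochberg adjusted p over all genes was under 0.05 in limma, a linear model that shares information on the spread across genes.

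In glycolysis, glucose enters the cell through facilitative transporters, is trapped by hexokinase and is broken down to pyruvate, which yields ATP without oxygen. Lactate dehydrogenase turns pyruvate into lactate and back, and monocarboxylate transporters carry lactate across membranes. In brain, lactate released by glia can serve neurons as fuel. Pyruvate dehydrogenase instead feeds pyruvate into mitochondria, and its kinases switch it off. The pentose phosphate pathway diverts glucose 6-phosphate to make NADPH, which antioxidant enzymes use. Hif1a encodes the oxygen-sensitive subunit of the hypoxia-inducible factor, which is known to switch on many glycolytic genes when oxygen is short.

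Few transcripts of these pathways differed detectably between the sides. Of the 30 measured members, 0 were called higher and 2 were called lower at the impact site, Slc16a7 and Pgk1. Over all 30142 genes tested, 1.22% were called higher, 4.33% were called lower and 5.55% were called in either direction. On the deposited values, the 2 of 30 members (6.67%) lay near that background. With quantile scaling, median centring, cyclic loess or array weights, 4 members (13.3%) were called, all lower. Of all genes, 5.92%, 9.47%, 5.14% and 7.53% were called in that order. Protein-coding genes alone gave 13.3% of members and 10.9% of genes, and leaving out the dimmest 50% gave 14.3% and 14.4%. A fixed block of same-numbered arrays gave 3.33% and 3.14%. A threshold of 0.01 gave 0% and 1.94%, and leaving out arrays 2 and 4 of both sides gave 0% and 1.21%. At an unadjusted p under 0.05, 3 members were higher and 5 were lower, together 26.7% of members. Of all genes, 10% were higher, 11.3% lower and 21.3% either at that level. Every ipsilateral array lay above every contralateral array for 0 members (2.04% of all genes) and below for 2 members (5.21% of all genes, and 7.25% in either direction). The median log2 difference, ipsilateral minus contralateral, was -0.02 over the members and 0.02 over all genes, and 15 members had a positive and 15 a negative difference, where 56.1% of all genes had a positive one. For 22 of the 30 members the 95% interval of the difference lay wholly between -0.5 and 0.5, as for 23465 of all 30142 genes.

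**Figure D1:**
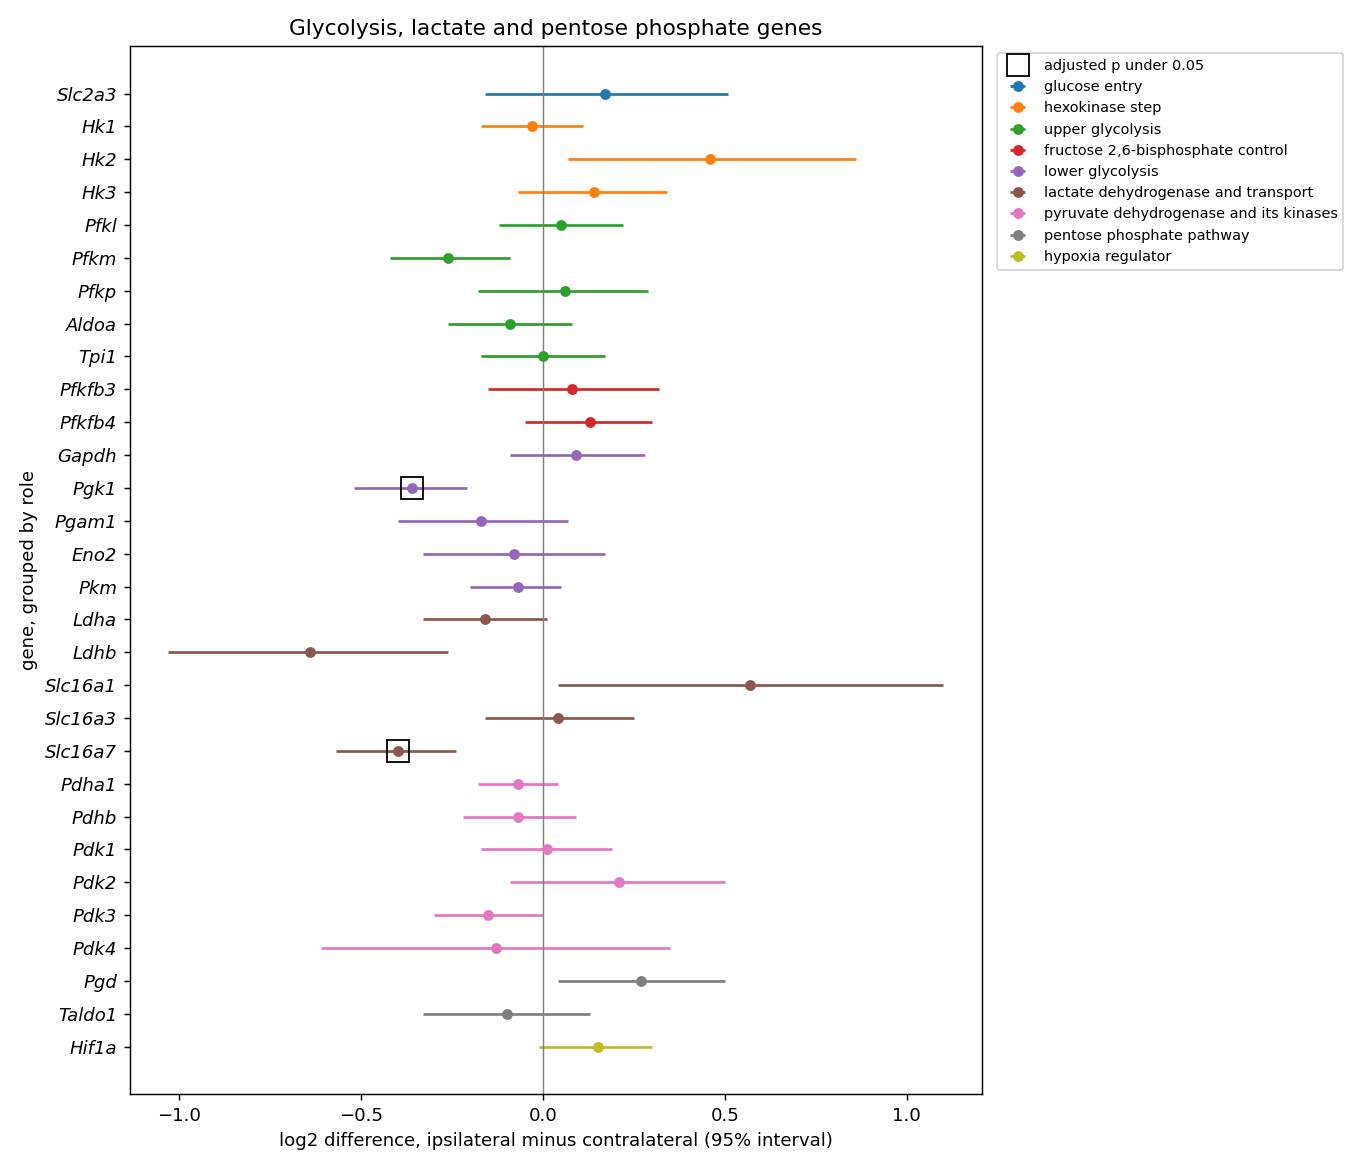
The x axis gives the log2 difference, ipsilateral minus contralateral, of each of the 30 measured members with its 95% interval from limma (n = 5 per side), and the y axis lists the genes by role. Black squares mark the 2 called genes, Pgk1 (-0.36) and Slc16a7 (-0.40). Ldhb (-0.64) and Slc16a1 (0.57) lie farthest from 0 and have wide intervals.

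Since hypoxia-inducible factor binds a short core, ACGTG or GCGTG, the 250 bases before each RefSeq start site (build GRCm38.p6) were searched for both cores on both strands. The table held 49 promoters for 33 of the 35 members, and 39 of those 49 (79.6%) held a core, against 38.6% of all 32851 promoters. Members' promoters were richer in G and C (median 60.4% against 52.4%). Among promoters with at least 60% G and C, 25 of 26 members' promoters (96.2%) and 63.8% of all promoters held a core. Some genes had several start sites with overlapping windows, such as Aldoa and Eno1, so these promoters are not independent units. G and C content above the 60% bound was not matched, and the shares were not tested. A match is a description of the letters and not a binding site. The promoters of the lactate dehydrogenase genes and of the transporter gene Slc16a1 are shown because isozymes and transporters are set against each other below. The Pgk1 promoter, on chromosome X, is shown because a row of Pgk1 was called, although that row's identifier carries chromosome 12. Slc16a7 and Slc2a3 had no promoter in the table. Capitals mark the cores, and CACGTG holds ACGTG on both strands and counts as 2 overlapping matches. Ldha is shown at its upstream start site (chr7:46845554-46845803, plus strand, 5 matches), and its other start site in the table had 1 match. Ldhb lies at chr6:142507958-142508207 (minus strand, 1 match), Slc16a1 at chr3:104638414-104638663 (plus strand, 4 matches) and Pgk1 at chrX:106186850-106187099 (plus strand, 2 matches).
Ldha: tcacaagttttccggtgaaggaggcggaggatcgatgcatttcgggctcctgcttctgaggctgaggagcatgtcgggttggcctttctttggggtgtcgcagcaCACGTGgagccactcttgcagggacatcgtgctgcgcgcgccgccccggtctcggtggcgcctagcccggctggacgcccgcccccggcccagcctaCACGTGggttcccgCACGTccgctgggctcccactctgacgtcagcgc
Ldhb: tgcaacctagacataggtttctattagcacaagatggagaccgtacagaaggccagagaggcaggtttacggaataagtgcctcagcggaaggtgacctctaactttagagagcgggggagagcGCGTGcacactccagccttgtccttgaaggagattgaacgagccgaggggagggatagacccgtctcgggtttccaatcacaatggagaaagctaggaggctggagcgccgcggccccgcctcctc
Slc16a1: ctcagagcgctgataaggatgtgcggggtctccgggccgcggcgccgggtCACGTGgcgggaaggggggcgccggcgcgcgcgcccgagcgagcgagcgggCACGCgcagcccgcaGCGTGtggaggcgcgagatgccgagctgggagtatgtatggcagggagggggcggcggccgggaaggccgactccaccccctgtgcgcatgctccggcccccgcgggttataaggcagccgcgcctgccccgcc
Pgk1: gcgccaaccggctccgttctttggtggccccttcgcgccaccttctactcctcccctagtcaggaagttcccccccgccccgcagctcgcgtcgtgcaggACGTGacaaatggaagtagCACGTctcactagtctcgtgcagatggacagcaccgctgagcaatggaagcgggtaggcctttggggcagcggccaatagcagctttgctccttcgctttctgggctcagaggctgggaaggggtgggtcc

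Glucose entry and trapping were measured by 4 members. Slc2a3 encodes GLUT3, the main glucose transporter of neurons. It read 11.78, 11.96, 12.14, 11.60 and 11.56 on ipsilateral arrays 1 to 5, against 11.48, 11.40, 11.65, 12.12 and 11.52 on contralateral arrays 1 to 5. The groups overlapped, and the log2 difference of 0.17 ± 0.15 (SE) did not pass (adjusted p = 0.564 in limma). Hk1, the constitutive hexokinase of brain, stood at 10.80 ± 0.10 against 10.83 ± 0.07 (mean ± SD, n = 5 each), a difference of -0.03 with a 95% interval from -0.17 to 0.11. Hk2 encodes the inducible hexokinase. Its log2 signal was 6.22, 6.55, 6.25, 7.17 and 6.99 ipsilaterally and 6.05, 6.35, 6.22, 6.17 and 6.07 contralaterally. Ipsilateral arrays 4 and 5 were the highest, and arrays 1 and 3 lay within the contralateral range. The Hk2 difference was 0.46 ± 0.18 (adjusted p = 0.164 in limma), and it did not pass. Hk3, a hexokinase found mainly in blood cells, read 5.06 ± 0.19 ipsilaterally and 4.92 ± 0.10 contralaterally, little above the array medians.

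None of the 5 measured genes of upper glycolysis, from phosphofructokinase to the triose phosphates, was called in limma, and 1 was lower at an unadjusted p under 0.05. Phosphofructokinase, the committing step, has muscle (Pfkm), liver (Pfkl) and platelet (Pfkp) forms. Pfkm read 14.27, 14.16, 14.17, 14.14 and 14.03 ipsilaterally and 14.48, 14.28, 14.53, 14.25 and 14.52 contralaterally. Only ipsilateral array 1 reached into the contralateral range. Its difference was -0.26 ± 0.08 (adjusted p = 0.0757 in limma). Its call depended on the setting. Pfkm passed with quantile scaling (-0.34, adjusted p = 0.0188), median centring (-0.33, 0.0126) and cyclic loess (-0.28, 0.0291) in limma. It also passed with array weights (-0.28, 0.0488). With protein-coding genes alone or without the dimmest 50%, it passed at an unchanged difference (-0.26, adjusted p = 0.0460 each in limma). Pfkl and Pfkp differed by 0.05 and 0.06, with intervals from -0.12 to 0.22 and from -0.18 to 0.29, and both changed sign with median centring (-0.02 each). The aldolase gene Aldoa stood at 12.65 ± 0.09 against 12.74 ± 0.13, and the triosephosphate isomerase gene Tpi1 at 13.02 ± 0.12 on both sides.

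Pfkfb3 and Pfkfb4 encode bifunctional enzymes that set the level of the activator of phosphofructokinase. Pfkfb4, the member of this pair with the larger statistic, read 6.81, 6.98, 7.25, 7.14 and 7.06 ipsilaterally and 6.90, 6.86, 6.92, 6.97 and 6.95 contralaterally. All ipsilateral arrays but the lowest were above every contralateral one, and the difference of 0.13 ± 0.08 did not pass (adjusted p = 0.394 in limma). Pfkfb3 stood at 7.16 ± 0.20 against 7.07 ± 0.14. The row that names Pfkfb2 together with the pseudogene C4bp-ps1 stood at 6.80 ± 0.10 ipsilaterally and 6.78 ± 0.05 contralaterally.

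In lower glycolysis, the brighter row of Pgk1 was called lower and 4 other measured genes did not pass. Pgk1 encodes phosphoglycerate kinase, which makes ATP in glycolysis. Its brighter row read 15.06, 15.14, 14.88, 15.18 and 15.04 ipsilaterally and 15.48, 15.30, 15.49, 15.39 and 15.46 contralaterally. Every ipsilateral array was below every contralateral one, as in 5.21% of all genes tested. The difference was -0.36 ± 0.07, or 1.29-fold lower (adjusted p = 0.0129 in limma). This row's identifier carries chromosome 12, while RefSeq places Pgk1 on chromosome X and lists a Pgk1 pseudogene, Pgk1-rs7, on chromosome 12. Among 30294 rows with 1 symbol and a RefSeq chromosome, 99% carried that chromosome, as did 30 of the 31 rows of the members. The Pgk1 row on chromosome X read 13.95, 14.04, 13.79, 14.07 and 13.90 ipsilaterally and 14.27, 14.10, 14.21, 14.15 and 14.29 contralaterally. These groups did not overlap either, but the difference of -0.25 did not pass (adjusted p = 0.0572 in limma with rows of the RefSeq chromosome, a setting chosen after seeing the data). Which locus the called row measures is not settled.

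The other genes of lower glycolysis differed little between sides. Gapdh, the glyceraldehyde 3-phosphate dehydrogenase gene often used as a reference transcript, stood at 16.82 ± 0.04 against 16.73 ± 0.18, a difference of 0.09 that turned to -0.01 with cyclic loess scaling. Contralateral array 2 was lowest for Gapdh, at 16.40, where the other 4 contralateral arrays lay between 16.80 and 16.82. It was also the lowest of its side for Slc2a3, Hk1, Aldoa, Tpi1, Pgk1, Pgam1, Eno2, Pkm, Ldha and Pdha1. For others, among them Hk2, Slc16a1, Slc16a3 and Pdk4, it was the highest of its side. How often it was lowest over all genes was not computed. Pgam1, the phosphoglycerate mutase gene, stood at 14.24 ± 0.20 against 14.41 ± 0.15. Eno2, known as neuron-specific enolase, stood at 11.70 ± 0.25 against 11.78 ± 0.11. Pkm, the pyruvate kinase gene, stood at 13.88 ± 0.06 against 13.96 ± 0.07, with a 95% interval of the difference from -0.20 to 0.05. Splice forms of Pkm were not told apart. Gapdh and Pgam1 have processed copies in the genome, and their rows may share signal with them.

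Lactate handling held the members farthest from 0. Slc16a7 encodes MCT2, the high-affinity monocarboxylate transporter of neurons. It read 8.60, 8.67, 8.71, 8.38 and 8.47 on the ipsilateral arrays, against 9.07, 8.91, 8.95, 9.01 and 8.91 on the contralateral arrays. Every ipsilateral array was below every contralateral one. The log2 difference was -0.40 ± 0.07, or 1.32-fold lower (adjusted p = 0.0103 in limma). The call held without each array in turn (adjusted p from 0.00974 to 0.0352). Leaving out arrays 2 and 4 from each side, which left 3 arrays per side, ended it (-0.38, adjusted p = 0.125), and ended that of Pgk1 (-0.48, adjusted p = 0.0545). In bulk tissue, fewer cells of a type and less RNA per cell cannot be told apart. Of 10 neuronal marker genes, 3 were called lower (30%, against 4.33% of all genes), while 7 had negative and 3 positive differences. All 10 but Nefm had mean log2 signals above 10, a level at which 11.8% of genes were called lower. The mean signal of the 10 ran from 13.64 to 14.11 ipsilaterally and from 14.01 to 14.24 contralaterally. Their part in the Slc16a7 difference was not tested.

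Slc16a1 encodes MCT1, the monocarboxylate transporter of endothelium, oligodendrocytes and astrocytes. It read 9.95, 10.07, 10.01, 11.00 and 11.16 ipsilaterally and 9.82, 10.01, 9.99, 9.63 and 9.88 contralaterally. Ipsilateral arrays 4 and 5 stood well above the rest, and arrays 1 to 3 lay near the contralateral range. The difference of 0.57 ± 0.24 did not pass (adjusted p = 0.200 in limma). Slc16a3 encodes MCT4, the low-affinity transporter of glycolytic cells. It stood at 5.24 ± 0.18 against 5.19 ± 0.11, little above the array medians, and its difference of 0.04 turned negative with quantile scaling (-0.03), median centring (-0.03) and cyclic loess (-0.02).

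The within-array log2 difference between Slc16a1 and Slc16a7 does not move with an offset of a whole array. It was 1.35, 1.40, 1.30, 2.62 and 2.69 ipsilaterally and 0.75, 1.10, 1.04, 0.62 and 0.97 contralaterally. No ipsilateral array overlapped a contralateral one, and the mean was higher by 0.98 ipsilaterally (1.87 ± 0.72 against 0.90 ± 0.20). Without ipsilateral arrays 4 and 5, a setting chosen after seeing the data, it was higher by 0.45. Of the 8 gene pairs that could be compared in this way, this was the only pair whose groups did not overlap. The groups of Slc16a7 alone already did not overlap, so the separation of this pair is not independent of that gene. These pairs were chosen with earlier results of these data known, and were described and not tested. No share over other pairs of genes was computed.

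Ldha and Ldhb encode the A and B subunits of lactate dehydrogenase, of which the B form is favoured in tissues that oxidise lactate. Ldhb read 14.47, 13.60, 13.51, 14.06 and 13.73 ipsilaterally and 14.58, 14.44, 14.52, 14.26 and 14.78 contralaterally. Ipsilateral array 1 lay within the contralateral range, and the other 4 ipsilateral arrays lay below it. The difference was -0.64 ± 0.17, with a 95% interval from -1.03 to -0.26 (adjusted p = 0.0598 in limma). Ldhb passed without ipsilateral replicate 1 (-0.79, adjusted p = 0.00677), and with quantile scaling (-0.72, 0.0210), median centring (-0.71, 0.0241) and cyclic loess (-0.66, 0.0487) in limma. It also passed with array weights (-0.71, 0.0202). At the unchanged difference of -0.64, it passed with protein-coding genes alone (0.0384) and without the dimmest 25% (0.0493) or 50% (0.0380). Ldha read 9.99, 10.18, 10.06, 10.25 and 10.02 ipsilaterally and 10.31, 10.11, 10.22, 10.44 and 10.23 contralaterally, and its groups overlapped. The Ldha difference of -0.16 ± 0.08 did not pass (adjusted p = 0.256). The within-array difference of Ldha and Ldhb was -3.77 ± 0.43 ipsilaterally and -4.25 ± 0.27 contralaterally, and the groups overlapped.

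**Figure D2:**
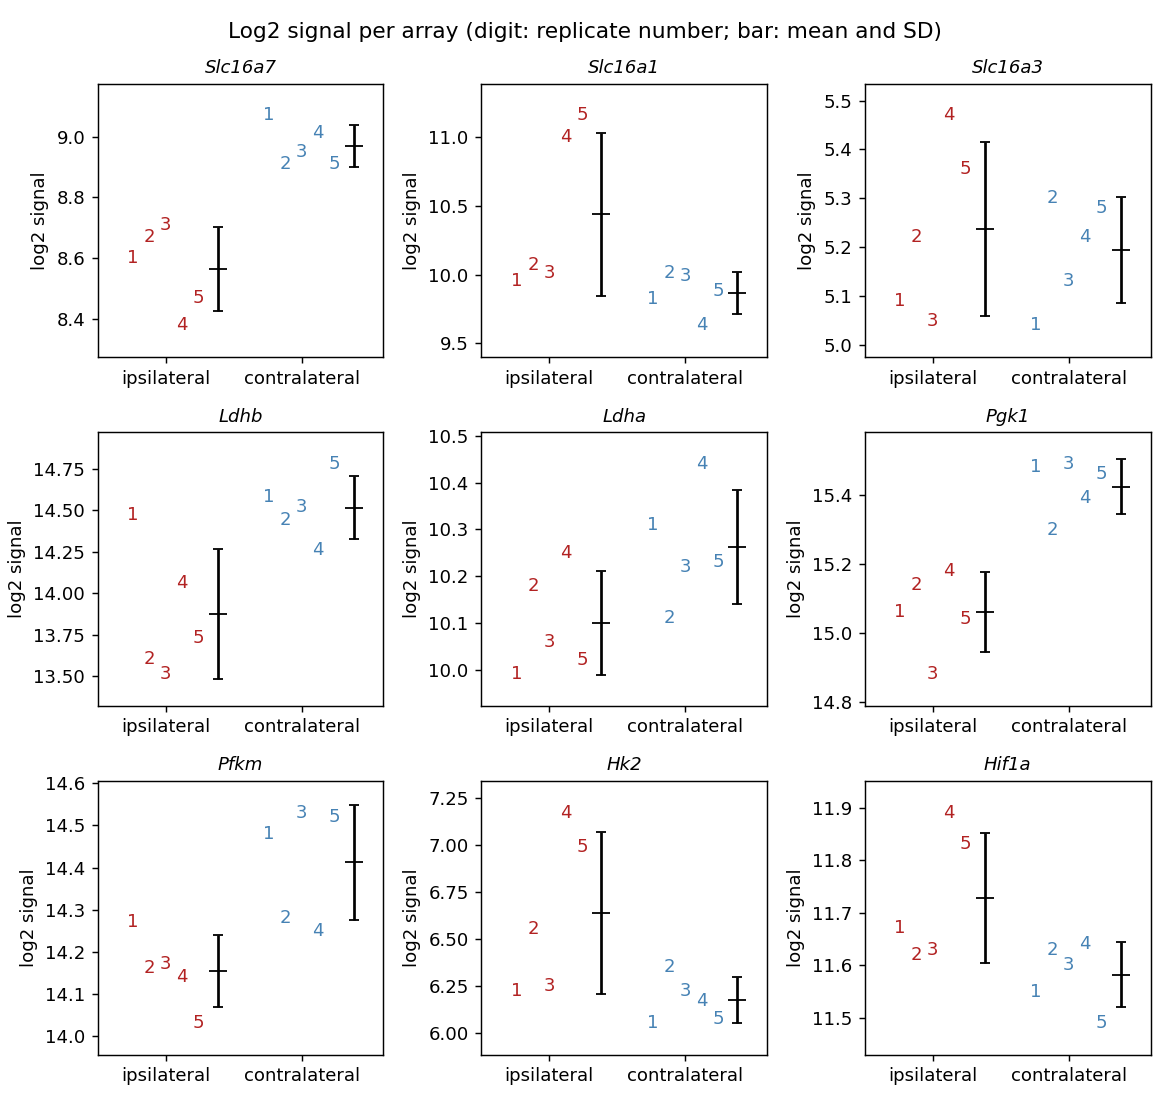
Each panel gives the log2 signal (y axis) of 1 gene on the 5 ipsilateral (left) and 5 contralateral (right) arrays. Digits are replicate numbers, and bars give the mean and SD. The groups do not overlap for Slc16a7 and Pgk1. Ipsilateral arrays 4 and 5 are the highest for Slc16a1, Slc16a3, Hk2 and Hif1a, and ipsilateral array 1 is the highest of its side for Ldhb.

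None of the 6 genes of pyruvate dehydrogenase and its kinases passed in limma, and 1 was lower at an unadjusted p under 0.05. Pdha1 and Pdhb, which encode subunits of the complex's decarboxylating part, stood at 12.46 ± 0.06 against 12.53 ± 0.03 and at 12.82 ± 0.13 against 12.89 ± 0.08. Their intervals ran from -0.18 to 0.04 and from -0.22 to 0.09. Pdk3, the kinase gene with the largest statistic, read 9.28, 9.51, 9.37, 9.42 and 9.31 ipsilaterally and 9.51, 9.57, 9.50, 9.68 and 9.40 contralaterally. The groups overlapped, and the difference was -0.15 ± 0.07 (adjusted p = 0.224 in limma). Pdk1, a hypoxia-induced kinase, stood at 7.69 ± 0.17 against 7.68 ± 0.04, and Pdk2 at 10.68 ± 0.30 against 10.47 ± 0.13.

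Pdk4, a kinase induced by fasting and glucocorticoids, spread most unequally between the sides. It read 8.29, 9.0, 9.05, 9.62 and 9.60 ipsilaterally and 9.14, 9.32, 9.28, 9.17 and 9.30 contralaterally. Ipsilateral arrays 4 and 5 lay above all contralateral arrays and the other 3 below them. The mean difference was -0.13 ± 0.22 (adjusted p = 0.791 in limma). It turned to 0.08 without ipsilateral replicate 1. SDs were 0.55 ipsilaterally and 0.08 contralaterally. The SD was higher ipsilaterally for 22 of the 30 members (73.3%), as for 63.6% of all genes.

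Of the pentose phosphate genes, Pgd encodes the second NADPH-making enzyme. It read 7.02, 7.10, 7.16, 7.52 and 7.50 ipsilaterally and 6.89, 7.00, 7.08, 7.02 and 6.97 contralaterally. Arrays 4 and 5 were again the highest, and the difference of 0.27 ± 0.10 did not pass (adjusted p = 0.166 in limma). Taldo1, the transaldolase gene, stood at 7.08 ± 0.23 against 7.18 ± 0.08. The row that names the transketolase gene Tkt together with the microRNA gene Mir3076 read 8.16, 8.02, 8.00, 8.15 and 8.08 ipsilaterally and 8.25, 8.31, 8.45, 8.18 and 8.39 contralaterally. Every ipsilateral array was below every contralateral one in this shared row, and the difference of -0.23 ± 0.07 did not pass (adjusted p = 0.0671, from a limma fit with such rows added after seeing the data).

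Hif1a, whose protein is controlled mostly by its breakdown and less by its transcript, read 11.67, 11.62, 11.63, 11.89 and 11.83 ipsilaterally. Contralaterally it read 11.55, 11.63, 11.60, 11.64 and 11.49. The groups overlapped, and the difference was 0.15 ± 0.07 (adjusted p = 0.251 in limma), with a 95% interval from -0.01 to 0.30.

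The ipsilateral arrays were not alike in these genes. Each was set against the 5 contralateral arrays, member by member. Ipsilateral arrays 1 to 5 lay above every contralateral array for 3, 6, 8, 11 and 10 of the 30 members, and below every contralateral array for 10, 7, 10, 7 and 14. Arrays 4 and 5 were the highest of the ipsilateral arrays and above every contralateral array for 7 members: Hk2, Pfkfb3, Slc16a1, Slc16a3, Pdk4, Pgd and Hif1a. They were the lowest of the ipsilateral arrays for 7 others, Slc2a3, Pfkm, Pfkp, Eno2, Pkm, Slc16a7 and Pdhb. These groupings were made after the values had been seen and were not tested. Shares over all genes were not computed for these counts, so the counts do not set the members apart from other genes.

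The same arrays differed in cell type markers. The mean of 11 measured microglia and macrophage genes, of 12 listed, was 7.98, 8.49, 8.51, 9.60 and 9.39 on ipsilateral arrays 1 to 5 and ran from 7.70 to 8.36 contralaterally, and 0 of the 11 genes were called in limma, with 8 higher at an unadjusted p under 0.05. The mean of 10 astrocyte genes was 10.42, 10.55, 10.69, 11.11 and 11.24 ipsilaterally and ran from 10.24 to 10.61 contralaterally, with 1 gene called higher. The 10 neuronal genes averaged 14.11, 13.93, 14.10, 13.64 and 13.65 ipsilaterally. Arrays 4 and 5 thus had the highest microglial and astrocyte means and the lowest neuronal means. They were also the highest ipsilateral arrays for the oligodendrocyte, fibroblast and neutrophil means. The 7 measured oligodendrocyte genes, of 8 listed, averaged 9.62, 9.87, 9.61, 10.92 and 10.57 ipsilaterally and ran from 10.20 to 11.64 contralaterally, with 1 called lower. The 9 endothelial and pericyte genes ran from 8.71 to 9.38 and from 8.65 to 9.14, with 0 called, 2 higher and 1 lower at an unadjusted p under 0.05. The 5 measured fibroblast genes, of 6 listed, ran from 7.09 to 8.57 and from 6.24 to 6.88, with 2 called higher. The 7 neutrophil genes ran from 4.59 to 5.26 and from 4.53 to 4.72, near the array medians, with 0 called and 2 higher at an unadjusted p under 0.05. The 2 measured red blood cell genes, of 6 listed, ran from 4.28 to 4.32 and from 4.23 to 4.37, below the array medians, with 0 called or past an unadjusted p of 0.05. Over all genes, 1.22% were called higher and 4.33% lower, and 10% were higher and 11.3% lower at an unadjusted p under 0.05. The part of the markers in the members' values was not tested.

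**Figure D3:**
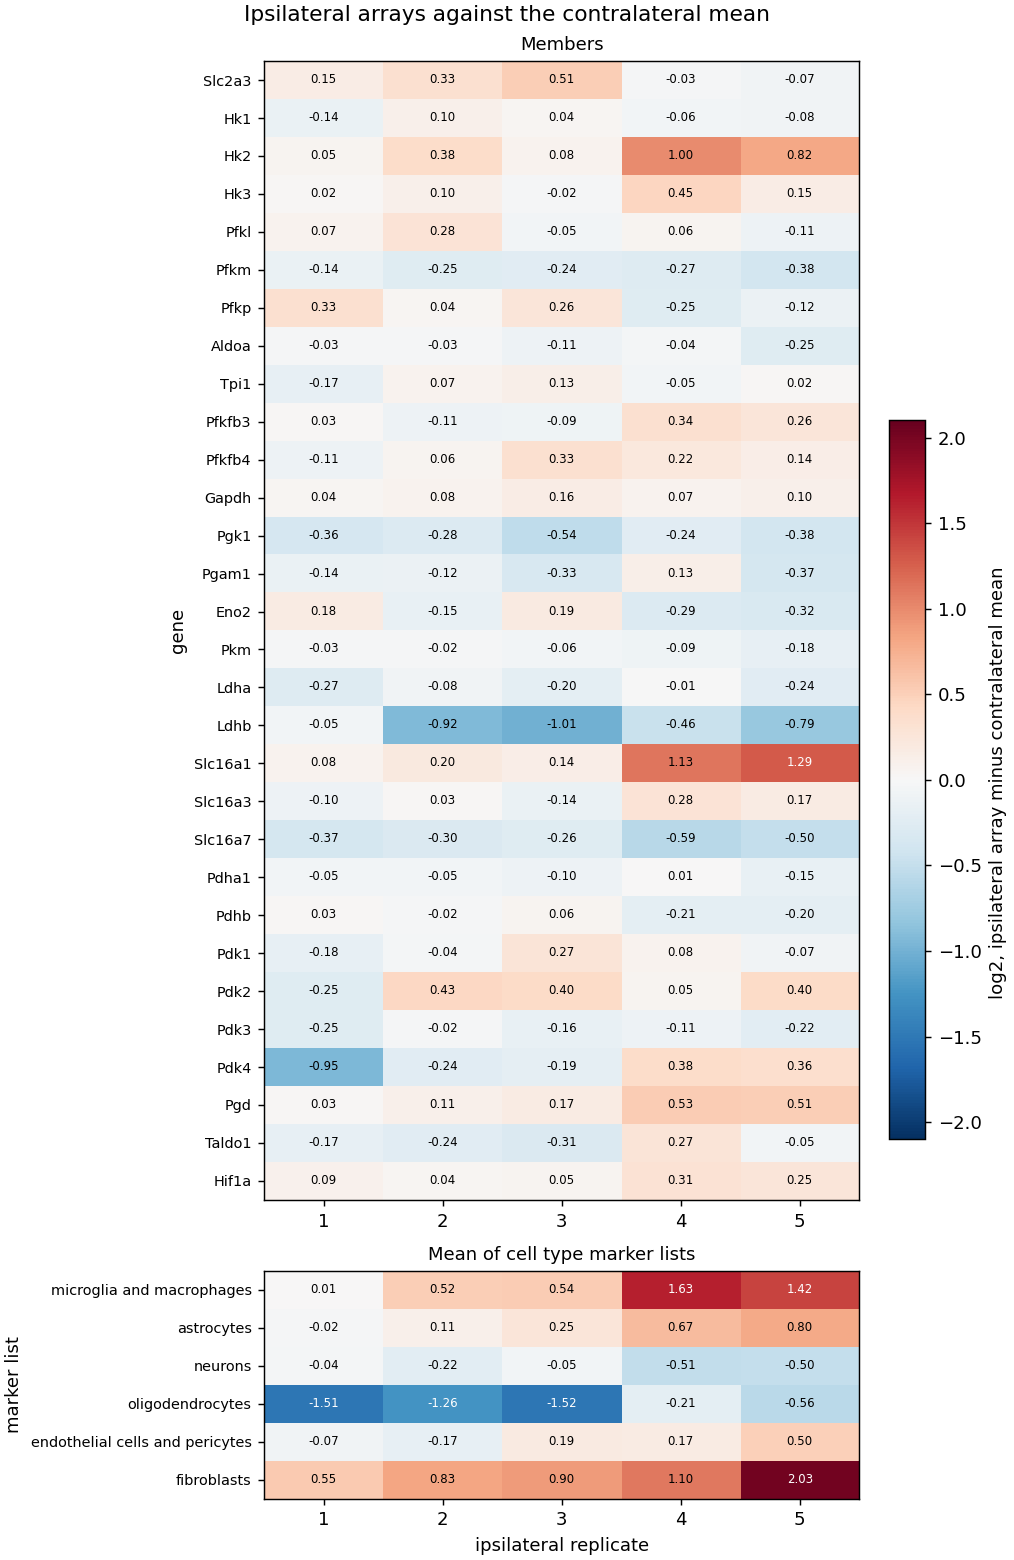
Cells give the log2 signal of each ipsilateral array (x axis, replicates 1 to 5) minus the contralateral mean, for the 30 members (upper panel) and for the mean of 6 cell type marker lists (lower panel). Red is above and blue below the contralateral mean. Slc16a7 and Pgk1 are below the contralateral mean on all 5 arrays, as are Pfkm, Aldoa, Pkm, Ldha, Ldhb and Pdk3. Hk2, Slc16a1 and Pgd are strongest on arrays 4 and 5. On these arrays the microglial (1.63 and 1.42), astrocyte (0.67 and 0.8), fibroblast (1.1 and 2.03) and oligodendrocyte (-0.21 and -0.56) means are also highest. The neuronal mean is lowest there (-0.51 and -0.5).

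Other genes of the same pathways were taken from 5 lists of 79 genes, of which 74 were measured. Of these, 0 were called higher and 5 were called lower (6.76%, against 5.55% of all genes in either direction), with a median difference of -0.04. At an unadjusted p under 0.05, 4 were higher and 17 were lower, together 28.4%, against 21.3% of all genes. Among 13 measured genes of lactate and pyruvate handling, Pdp1 was called lower, and 11 had negative and 2 positive differences. The median was -0.16, where 56.1% of all genes had positive differences and their median was 0.02. At an unadjusted p under 0.05 in limma, 7 of the 13 were lower and 0 were higher. That was 53.8%, against 21.3% of all genes in either direction and 11.3% lower. The mean signal of the 13 ran from 8.43 to 8.46 ipsilaterally and from 8.61 to 8.71 contralaterally, which was not tested. Pdp1 encodes the phosphatase that switches pyruvate dehydrogenase back on. It read 10.94, 10.73, 11.12, 10.56 and 10.30 ipsilaterally and 12.23, 11.87, 11.64, 12.12 and 11.94 contralaterally. No ipsilateral array reached the contralateral range. The difference was -1.23 ± 0.16, or 2.35-fold lower (adjusted p = 0.00197 in limma), the largest among all members and listed pathway genes. Pdpr, the regulatory subunit of that phosphatase, differed by -0.21 (adjusted p = 0.0648) with groups that did not overlap.

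Among 20 measured genes of other glycolytic steps and glucose transport, 1 fell. Slc2a13, which encodes a proton-coupled inositol transporter of the glucose transporter family, read 11.62, 11.96, 12.26, 11.71 and 11.54 ipsilaterally. Contralaterally it read 12.64, 12.53, 12.51, 12.41 and 12.47. The groups did not overlap, and the difference was -0.69 ± 0.13 (adjusted p = 0.0101 in limma). Slc2a1, which encodes GLUT1, the glucose transporter of the blood-brain barrier and of glia, stood at 13.35 ± 0.38 against 13.59 ± 0.23 (adjusted p = 0.482). Tigar, which encodes a phosphatase that lowers glycolytic flux, differed by -0.37 with groups that did not overlap, and did not pass (adjusted p = 0.0616). Tigar passed with quantile scaling (0.0485), median centring (0.0181), protein-coding genes alone (0.0381) and both filters on dim genes (0.0498 and 0.0380) in limma, and Pdpr with median centring (0.0179), protein-coding genes alone (0.0358) and the stricter filter (0.0370). Slc2a1, Tigar and Pdpr were chosen after their values had been seen. None of the 9 other pentose phosphate genes or the 12 measured glycogen genes passed in limma. Of these, 1 and 2 had an unadjusted p under 0.05 (11.1% and 16.7%, against 21.3% of all genes). The largest statistics belonged to Prps1, which makes phosphoribosyl pyrophosphate (0.19, adjusted p = 0.173), and to the glycogen phosphorylase gene Pygm (-0.40, adjusted p = 0.106), which passed with median centring (-0.47, 0.0463).

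In the list of 20 genes of the hypoxia pathway and its targets, 3 fell (15%, against 4.33% of all genes called lower). All 3 had mean log2 signals above 10, a level at which 11.8% of genes were called lower. Besides these 3, only Epas1 and Bnip3l of the list lay above that level, and neither was called. The 15% is a share of the whole list, so it is not directly comparable with the 11.8%. In the list, 14 genes had negative and 6 positive differences, and the median was -0.13 against 0.02 over all genes. At an unadjusted p under 0.05, 6 were lower and 1 was higher, against 11.3% and 10% of all genes. The higher one was Adm (0.60 ± 0.22, adjusted p = 0.147 in limma). Egln1 encodes the prolyl hydroxylase that marks hypoxia-inducible factor for breakdown when oxygen is present, and it is itself induced by that factor. It read 11.40, 11.30, 11.22, 11.21 and 11.32 ipsilaterally and 11.89, 11.76, 11.78, 11.78 and 12.06 contralaterally. The difference was -0.56 ± 0.07, or 1.48-fold lower (adjusted p = 0.00197 in limma). Bnip3, a target gene that acts in the removal of mitochondria, fell by 0.41 on the log2 scale (10.43 ± 0.12 against 10.84 ± 0.10, adjusted p = 0.00952). Arnt2, a neuronal partner of hypoxia-inducible factor, fell by 0.50 on the log2 scale (11.23 ± 0.14 against 11.73 ± 0.14, adjusted p = 0.00875). The groups did not overlap for any of these 3 genes. With arrays 2 and 4 left out from each side, the calls of Egln1, Bnip3, Arnt2, Pdp1 and Slc2a13 ended (adjusted p from 0.0542 to 0.141 in limma), with 3 arrays per side and differences of -0.60, -0.52, -0.58, -1.15 and -0.73 in that order. Without ipsilateral arrays 4 and 5, those of Arnt2 (-0.46) and Slc2a13 (-0.57) ended (adjusted p = 0.0598 each in limma).

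**Figure D4:**
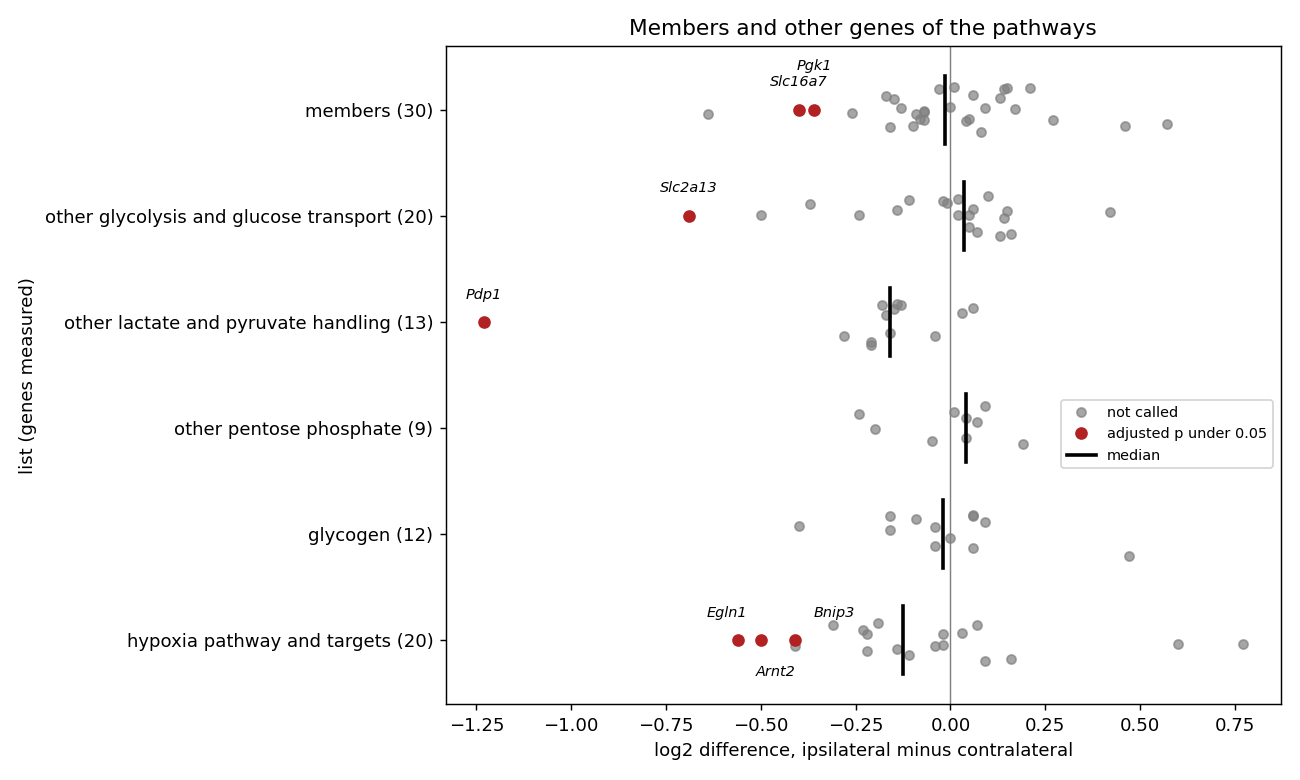
The x axis gives the log2 difference, ipsilateral minus contralateral, of each measured gene, and rows are the members and 5 other lists with the number of genes measured. Red points passed at an adjusted p under 0.05 in limma, and black bars are medians. All 7 red points lie below 0, from -1.23 (Pdp1) to -0.36 (Pgk1), and the medians lie between -0.16 and 0.04.

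Brighter genes were called more often in these data. Of the 4230 genes with a mean log2 signal above 10, 13.8% were called, and of the 19 members above that level 1 was, Pgk1 (5.26%). The balance of all calls depended on scaling: 22% of called genes were higher ipsilaterally on the deposited values and 8.13% were after median centring.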

How the data were processed

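RNA of 5 ipsilateral and 5 contralateral mouse brain samples was measured on whole-transcript arrays. The submitters' processing notes name Transcriptome Analysis Console 4.0 for the deposited log2 signals. That they are on a log2 scale was inferred from their range, 1.97 to 19.93. How the authors corrected background, normalized and summarized them, and the build used, is not given in the sources used here. Of 65956 rows, 30604 named 1 symbol in the array annotation, and symbols were updated by Entrez identifier from RefSeq (GRCm38.p6). The row with the highest mean over the 10 arrays was kept per gene, which gave 30142 genes.

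Sides were compared with the lmFit and eBayes functions of limma 3.58.1, under R 4.3.3, and statmod 1.5.0 served the random block. The fit had no covariates and was two-sided, with Benjamini-Hochberg adjustment over all genes and a threshold of 0.05. Values are means ± SD, and differences carry the SE of the fit or its unadjusted 95% interval. The fit was tested on simulated data. The members and lists were chosen with earlier results of these data known. Values per array were given for called members, for the member with the largest moderated statistic in each of 9 role groups, and for Hif1a. Ldha, Ldhb, Slc16a1, Pdk4 and the shared Tkt row were given per array after their values had been seen. In 5 other pathway lists, called genes and the gene with the largest statistic were named. Arrays that share a replicate number were not treated as pairs. The labels gave no batch or scan date. Alternatives were blocks, scalings, variance models, filters, row choices and left-out arrays.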

Additional observations from a re-analysis of the deposited data

Results flagged for a closer look

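In 2 of the 76 groups of 5 arrays checked, 1 array stood far from the other 4, where chance gives about 1 in 20. Gapdh read 16.40 on contralateral array 2 and 16.80 to 16.82 on the other contralateral arrays. That array was also the lowest of its side for several other glycolytic members, by smaller margins. Pfkfb3 read 6.83 on contralateral array 4 and 7.07 to 7.16 on the others. Neither gene was called in limma, with adjusted p of 0.588 and 0.707.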

How the results depend on the processing

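The count of members called higher was 0 under every alternative run. The count called lower, 2 as reported, was 1 with the replicate block as a fixed term, 4 with quantile scaling, median centring, cyclic loess, array weights, protein-coding genes alone and without the dimmest 50%, and 0 at a threshold of 0.01 and without the arrays numbered 2 and 4. It was 1 with rows of the RefSeq chromosome, an alternative added after seeing the data, and 2 to 3 without each array in turn. Over all genes, 369 higher and 1305 lower as reported became 177 and 769 with the replicate block as a fixed term, 232 and 2623 with median centring, 656 and 1614 with array weights, 47 and 537 at a threshold of 0.01, 77 and 289 without the arrays numbered 2 and 4, and 188 and 615 without ipsilateral arrays 4 and 5 (added after seeing the data). Without each array in turn they ran from 111 to 760 and from 740 to 1607. The cause of these changes was not tested. The pair differences moved by less than the larger of both sides' SDs. That of Slc16a1 and Slc16a7 moved most relative to the contralateral SD of 0.20, to 0.45 without ipsilateral arrays 4 and 5, against 0.98 as reported. Without those arrays that of Hk2 and Hk1 was 0.17, against 0.50, and that of Pdk4 and Pdk2 was -0.66, against -0.34. The replicate block as a random term gave 2 members lower. With the fixed block, the calls of Pgk1 (adjusted p = 0.0733) and Bnip3 (0.0654) ended. Deviations of same-numbered arrays correlated from -0.40 to 0.26, over 0.1 in 2 of 5 pairs. Only 1 of 5 arrays correlated best with its own number. Weak correlations can also arise for samples of 1 mouse, so these values do not settle whether the numbers mark pairs.

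Of 778 values of single members under 26 alternatives, 738 kept direction and side, 6 lost and 14 gained the call, and 20 changed sign, all in genes not called. Signs changed with cyclic loess for Hk1 (0.03), Gapdh (-0.01) and Slc16a3 (-0.02), with quantile scaling for Slc16a3 (-0.03), and with median centring for Pfkl (-0.02), Pfkp (-0.02), Slc16a3 (-0.03) and Pdk1 (-0.06). Without the arrays numbered 2 and 4 they changed for Hk3 (-0.01) and Pdk1 (-0.01), and without ipsilateral arrays 4 and 5 for Pfkfb3 (-0.06), Eno2 (0.07), Slc16a3 (-0.07) and Pdhb (0.03). Without 1 array, Pfkl ran from -0.01 to 0.09, Pfkp from -0.01 to 0.13, Slc16a3 from -0.01 to 0.09, Pdk1 from -0.05 to 0.06 and Pdk4 from -0.26 to 0.08. Signals near the array medians (Hk3, Slc16a3) limit what could be seen.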
